A study of Mus musculus with 20 samples.

Results

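The transcripts of 10 Sox transcription factors were followed in RNA-seq gene counts from mouse gastric organoids, stomach epithelium kept in culture as small hollow bodies. The members were Sox2, Sox4, Sox7, Sox9, Sox11, Sox12, Sox13, Sox17, Sox18 and Sox21, out of 24047 genes in the count table. Sox7 and Sox11 had been chosen by their measured levels, because both were higher in dysplastic or p53 knockout lines, and the other 8 were taken as family members. The levels of Sox7 and Sox11 are therefore given as a description, with no test.

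The series held 20 libraries from 8 organoid lines of the BL/6 strain, all grown in conditioned medium, and it compared organoids with and without p53. The non-dysplastic wild type (WT) lines were 300 and 1269, with 2 libraries each. The dysplastic WT lines were 565 and 752, each with 3 libraries. Line 650 was a non-dysplastic p53 knockout (KO) made in vivo and line 1270 a non-dysplastic KO made ex vivo, with 2 libraries each, and lines 794 and 801 were dysplastic KO lines made in vivo, with 3 libraries each. The labels name no allele, Cre driver or age, do not say how dysplasia was scored, and do not say whether the lines came from separate animals. Line 1270 is 1 line, so the mode of KO and the line cannot be told apart.

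Sox proteins share a DNA-binding domain, the HMG box, which binds the minor groove and bends the DNA, and the family is divided into groups by the sequence of that box. Sox2 and Sox21 belong to group B, Sox4, Sox11 and Sox12 to group C, Sox13 to group D, Sox9 to group E, and Sox7, Sox17 and Sox18 to group F. In the stomach, Sox2 is a regulator of foregut identity and marks progenitor cells of the glands, and Sox9 is a factor of epithelial progenitors. Group F factors are best known from endothelium and early endoderm, and Sox17 and Sox7 can restrain the activity of beta-catenin. Group C factors are known from neural and mesenchymal progenitors, and Sox4 and Sox11 are often abundant in tumours.

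The stretch of 27 bases that opens the conserved part of the HMG box shows why transcripts of this family have to be told apart by the bases around it. Of its 27 positions, 20 were identical in all 10 members and are in capitals below; the lower-case positions varied. The sequences were read from the GENCODE transcripts of build GRCm38, which is not the build of the counts (mm9), and are given 5′ to 3′ on the coding strand for the group F factors, for Sox11 and its closest relative Sox4, and for Sox2, the foregut factor of another group.
Sox7: cGgCCcATGAAtGCcTTcATGGTgTGG
Sox17: cGgCCgATGAAcGCcTTtATGGTgTGG
Sox18: cGgCCcATGAAcGCcTTcATGGTgTGG
Sox11: cGgCCcATGAAcGCcTTcATGGTgTGG
Sox4: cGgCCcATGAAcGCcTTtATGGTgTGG
Sox2: aGgCCcATGAAcGCcTTcATGGTaTGG

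The stretch lies in coding sequence at chr14:63943894-63943920 in exon 1 of Sox7 (plus strand), chr1:4493173-4493199 in exon 4 of Sox17 (minus strand) and chr12:27342232-27342258 in the single exon of Sox11 (minus strand). Sox11, Sox18 and Sox21 had the same 27 bases, and the 10 members had 8 distinct versions. Over the whole box of 237 bases (79 codons), identity between members ran from 57.4% to 89.5% over 45 pairs. The closest pairs were within groups, with 89.5% for Sox4 and Sox11 and 87.8% for Sox2 and Sox21. Next came Sox12 with Sox4 (85.2%) and with Sox11 (84.4%), then Sox17 and Sox18 (82.3%). The longest run of bases shared by the transcripts of any pair was 48, between Sox4 and Sox11 in coding sequence.
Sox4 and Sox11: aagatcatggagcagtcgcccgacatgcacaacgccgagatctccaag

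A read that lies wholly inside such a run cannot be assigned to 1 gene, and the number of such reads in the counts was not measured. In GENCODE, Sox2 lies inside the non-coding gene Sox2ot on the same strand, and Sox4, Sox17 and Sox21 overlap a non-coding gene on the opposite strand. No source used here says whether the counting used strand or how it treated overlapping genes, and so reads of these pairs cannot be told apart.

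The libraries held from 5669521 to 16323270 counts each, and those of 1 line were summed, giving 22217126 to 36880593 counts per line. Values are in CPM, counts relative to the library total, here the total scaled by edgeR's TMM method. Trp53, the targeted gene, did not fall below 98.1 CPM in any of the 10 WT libraries and did not exceed 32.8 CPM in any of the 10 KO libraries. Of 15 gastric epithelium markers 14 were detected. The keratins Krt19 and Krt8 led that list, and Atp4b, of the parietal cell proton pump, was at 0 in all lines. In 6 lines 1 library stood apart from its sister libraries (300-2, 565-3, 650-2, 752-3, 794-3 and 801-3), and line values without them are given beside the results of several members. The RNA of a line is a bulk sample, in which fewer cells with a transcript and less transcript per cell cannot be told apart.

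Per kilobase of transcript, the 10 members spanned a wide range of levels. Sox4 had the highest mean, 32.6 ± 12.0 CPM per kb (SD, n = 8 lines), followed by Sox21 (20.8 ± 4.93), Sox9 (17.6 ± 4.31), Sox2 (15.8 ± 4.15) and Sox13 (7.05 ± 1.27). The neighbours Sox21, Sox9 and Sox2 differed by less than 1 SD over lines. Sox7 (1.45 ± 1.97), Sox17 (1.26 ± 0.72), Sox12 (0.76 ± 0.39) and Sox11 (0.37 ± 0.38 CPM per kb) formed a lower tier, whose neighbours also differed by less than 1 SD. Sox18 had 1 count in 1 of 20 libraries, 801-1, out of 236116289 counts in all, for which the exact Poisson 95% interval allows up to 0.0236 CPM; it did not pass the filter on low counts and has no test. The group F factor of lymphatic and blood vessel endothelium was thus at the detection limit in these cultures.

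Of the 20 mouse Sox genes in the table (Sry included), 18 had at least 1 count and 11 reached 1 CPM in at least 1 line. Besides the members, Sox5 and Sox6, the group D relatives of Sox13, reached that level. Sox5 was at 19.0 CPM in line 1270 and between 2.42 and 7.76 CPM in the other 7 lines. Sox6 did not exceed 1.27 CPM, in line 1269. Sox1 and Sry had no count.

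**Figure D1:**
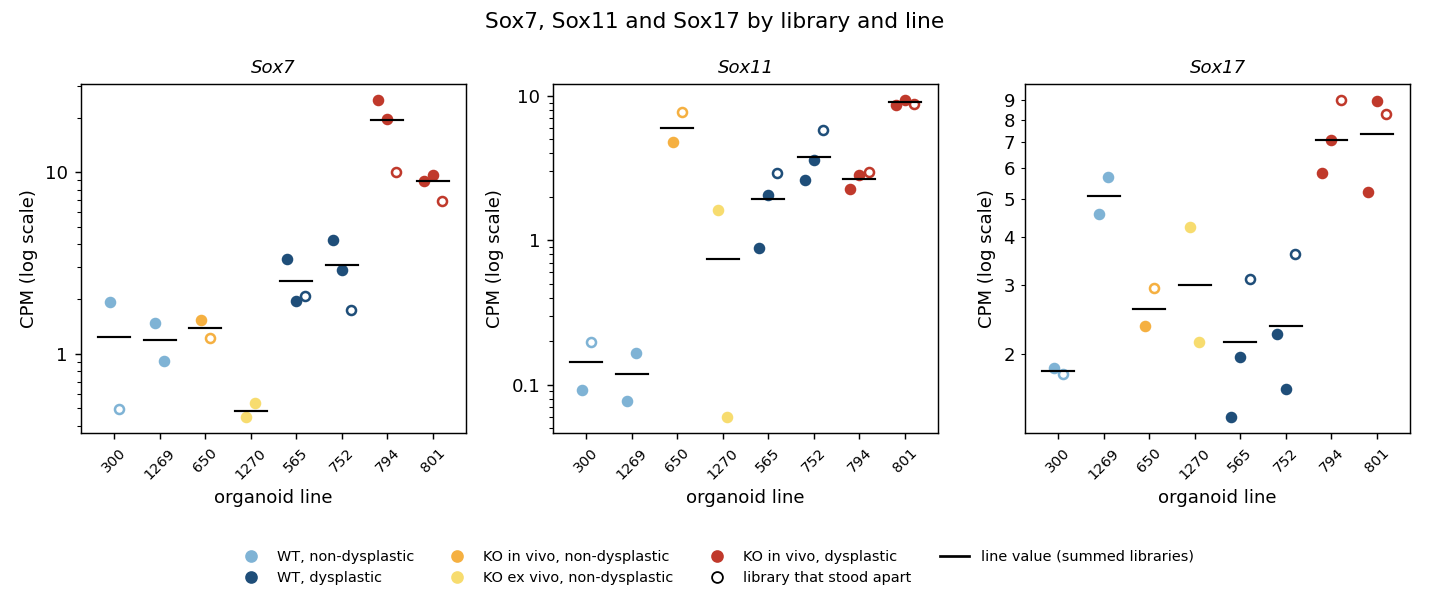
CPM of Sox7, Sox11 and Sox17 (log axes) in each library (points, open for a library that stood apart) and each line (bars, summed libraries) for the 8 lines. Lines 794 and 801 hold the 2 highest line values of Sox7 (19.4 and 8.97 CPM) and of Sox17 (7.09 and 7.34 CPM), and lines 300 and 1269 the lowest of Sox11 (0.14 and 0.12 CPM).

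Sox7, a group F factor of endothelium and early endoderm, was lowest in non-dysplastic organoids and highest in dysplastic KO organoids. Its line values were 1.24 CPM in line 300, 1.19 CPM in 1269, 1.39 CPM in 650 and 0.49 CPM in 1270, the 4 non-dysplastic lines. The dysplastic WT lines 565 and 752 stood at 2.498 and 3.10 CPM, and the dysplastic KO lines 794 and 801 at 19.4 and 8.97 CPM. All 4 dysplastic lines lay above all 4 non-dysplastic lines, which is the property for which the gene was picked. Line 1270 was the lowest of all 8, and the other 3 non-dysplastic lines were close to each other.

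Dysplastic lines had a mean of 8.50 ± 7.85 CPM (SD, n = 4 lines), and non-dysplastic lines one of 1.08 ± 0.40 CPM. On the log2 scale of the edgeR fit the difference was 2.57, and it was 2.34 between dysplastic KO and dysplastic WT lines. Within the dysplastic lines the summed KO level was 5.17 times the WT level, with a 95% interval of 4.44 to 6.06 that covers counting error only. Line 794 carried much of this, and without it the log2 difference between dysplastic KO and WT lines was 1.68. In non-dysplastic organoids the KO lines did not share a direction against WT, with line 650 at 1.14 times (0.72 to 1.80) and line 1270 at 0.40 times (0.21 to 0.72) the WT level. The KO difference over both classes, 0.97, was 0.51 without line 650.

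The libraries of a line differed as well. Line 794 had 25.1, 19.7 and 10.04 CPM of Sox7 in its libraries 1, 2 and 3, and line 801 had 8.90, 9.61 and 6.94 CPM. Line 300 had 1.93 CPM in library 1 and 0.49 CPM in library 2. In each of the 6 lines with a library that stood apart, that library had less Sox7 than the mean of its sisters. With those libraries left out, line 300 was at 1.94, 650 at 1.53, 565 at 2.70, 752 at 3.59, 794 at 23.1 and 801 at 9.47 CPM, and the dysplastic lines again lay above the non-dysplastic ones.

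Transcripts of some endothelial markers, foremost Esam, were high beside Sox7 in line 794. The list sum of line 801 lay within the range of the other 6 lines. The list of 13 markers summed to 195 CPM in line 794, 25.7 CPM in line 801 and between 17.7 and 36.9 CPM in the other 6 lines. In line 794, 7 of the 13 markers had their highest level, foremost Esam, an adhesion molecule of endothelium and of some epithelia (167 CPM against 7.34 to 20.6 CPM elsewhere), the VEGF receptor gene Flt1 (10.2 CPM against at most 0.39 CPM) and Cdh5, the cadherin of endothelial junctions (1.76 CPM against at most 0.10 CPM). Flt1 and Cdh5 were named after their values were seen. Pecam1, a pan-endothelial marker, was at 0.95 CPM in 794 and at 0.16 to 0.95 CPM elsewhere, Erg had 1 count in 794, and Emcn and Cldn5 were at 0 there. In line 801, with Sox7 at 8.97 CPM, Cdh5 was at 0.10 CPM, Flt1 at 0.39 CPM and Erg and Emcn at 0. Esam had its lowest level of the 8 lines there (7.34 CPM). Pecam1 was at 0.39 CPM in 801, and Tek at 0.29 CPM (0.19 to 7.51 CPM over lines). Flt4, a VEGF receptor of lymphatic endothelium, was highest in line 801, at 11.1 CPM against 1.43 to 7.03 CPM elsewhere. The VEGF receptor gene Kdr (0.26 CPM) and Egfl7 (4.86 CPM), a secreted factor of endothelium, were second there to line 794 (0.58 and 7.38 CPM), and Cldn5 had its single count in 801. The part of these transcripts in the Sox7 levels of lines 794 and 801 was not tested.

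**Figure D2:**
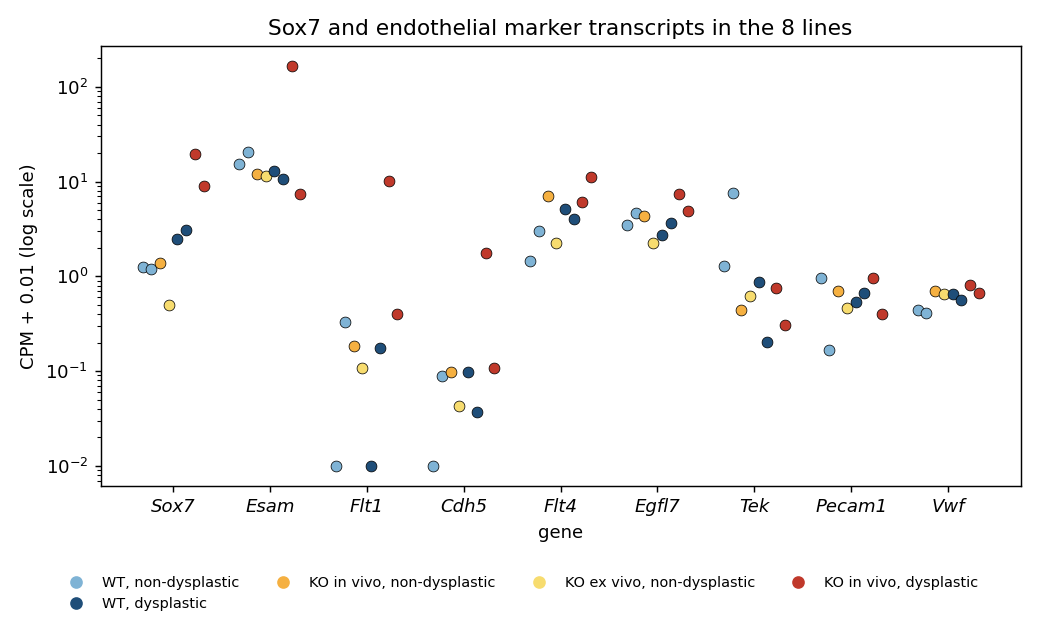
Line values (CPM + 0.01, log axis) of Sox7 and 8 endothelial marker genes in the 8 lines, each point 1 line, in the order 300, 1269, 650, 1270, 565, 752, 794 and 801. Line 794 stands above the others for Sox7, Esam (167 CPM), Flt1 (10.2 CPM) and Cdh5 (1.76 CPM), and line 801 has Sox7 at 8.97 CPM with Esam at 7.34 CPM.

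Sox17, the group F factor of definitive endoderm, was likewise highest in the dysplastic KO lines. The lines 794 and 801 stood at 7.09 and 7.34 CPM, against 2.15 CPM in line 565 and 2.36 CPM in line 752. Non-dysplastic lines were at 1.81 CPM (300), 5.09 CPM (1269), 2.60 CPM (650) and 3.01 CPM (1270). The dysplastic KO and WT lines did not overlap, while the WT line 1269 stood closer to the dysplastic KO lines than to the other WT lines.

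Among dysplastic lines the KO mean of Sox17 was 7.22 ± 0.17 CPM, and the WT mean 2.25 ± 0.15 CPM (SD, n = 2 lines each). The log2 fold change was 1.68 ± 0.51 (SE), with an unadjusted p of 0.0139 and the adjusted p at 1 in edgeR's quasi-likelihood test, so it did not pass over all genes. In limma-voom on the libraries with the line as a correlated block the adjusted p was 0.0352 (log2 fold change 1.70), and over the other alternatives the adjusted p ran from 0.0868 to 1. The difference was 1.92 on line sums of the 14 libraries that remained, and 1.59 to 1.74 when 1 line at a time was left out. Library by library, the KO values were 5.82, 7.09 and 9.01 CPM in line 794 and 5.22, 8.93 and 8.29 CPM in line 801. The highest of the 6 dysplastic WT libraries was 752-3 with 3.61 CPM, below the lowest KO library. Libraries of 1 line are not independent samples, so this remains a comparison of 2 lines with 2. At the level of lines 19% of all genes were separated upward in that comparison. The limma-voom fit above treated libraries of 1 line as only partly dependent (correlation 0.22).

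The KO difference in Sox17 was not alike in both classes of organoids. In non-dysplastic lines the KO lines 650 and 1270 stood at 0.72 times (0.53 to 0.98) and 0.84 times (0.64 to 1.09) the WT level (95% intervals for counting error). The difference of the KO differences, on the log2 scale, was 1.98 ± 0.71 (SE), with an unadjusted p of 0.0284 and the adjusted p at 0.999829 in edgeR's quasi-likelihood test. Without line 1269 it was 0.99.

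Sox11, a group C factor known from neural progenitors and tumours, was close to absent in WT non-dysplastic organoids and present in the dysplastic lines. Lines 300 and 1269 had 3 counts each, or 0.14 and 0.12 CPM. The dysplastic WT lines 565 and 752 were at 1.95 and 3.78 CPM, and the dysplastic KO lines 794 and 801 at 2.65 and 9.13 CPM. Among non-dysplastic KO lines, 650 stood at 6.03 CPM and 1270 at 0.745 CPM, so the non-dysplastic line 650 was above 3 of the 4 dysplastic lines.

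The summed level in dysplastic WT lines was 22.2 times that in non-dysplastic WT lines, with a 95% counting interval of 10.04 to 61.3. Line 650 was at 46.3 times (20.8 to 128) the non-dysplastic WT level. On the log2 scale of the fit the dysplastic difference was 2.61 and the KO difference 2.84. These depend on single lines. Without line 650 the dysplastic difference was 3.69 and the KO difference 1.76, and without line 801 the difference between dysplastic KO and WT lines was -0.12 in place of 1.04. With the sex of the line as a covariate the dysplastic difference was 4.03; all 4 dysplastic lines were female, and the 2 male lines were non-dysplastic.

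Within line 1270 the 2 libraries were not alike, with 22 Sox11 counts (1.63 CPM, exact Poisson 95% interval 1.02 to 2.47) in library 1 and 1 count (0.06 CPM, 0.0015 to 0.33) in library 2. The 2 intervals did not overlap. In the dysplastic WT lines Sox11 was at 0.89, 2.05 and 2.93 CPM in the libraries of 565 and at 2.61, 3.62 and 5.79 CPM in those of 752. The libraries that stood apart had more Sox11 than the mean of their sisters in 5 of 6 lines, and without them 565 was at 1.44, 752 at 3.14, 650 at 4.82 and 801 at 9.22 CPM.

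Markers of neurons, where Sox11 is also known, were low. The 6 neuron markers summed to 7.27 CPM in line 801 and to between 2.53 and 4.38 CPM in the other 7 lines, with Elavl3 and Elavl4 at 0 in 6 lines each. Line 801, which had the most Sox11, was highest for 2 of the 6. These were Tubb3, a neuronal tubulin (5.19 CPM against 1.62 to 2.95 CPM elsewhere), and Stmn2, a stathmin of neurons (0.91 CPM against at most 0.81 CPM). Snap25 was highest in line 794 (1.64 CPM, 0.72 CPM in 801), Dcx in line 650 (0.52 CPM, 0.42 CPM in 801), and Elavl3 and Elavl4 in line 752. The 4 neuron markers tested, of 6 listed, were all positive for KO (median log2 difference 0.44) and for dysplasia (0.66). Over all genes 48.5% were positive for KO and 46.2% for dysplasia. None of the 4 was called in edgeR's test. Fibroblast markers summed to 35.8 CPM in line 650 and to between 5.17 and 12.7 CPM elsewhere. The part of neuron and fibroblast transcripts in the Sox11 level was not tested.

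Sox4, the abundant group C member, differed as much between lines of 1 group as between groups. It stood at 117 and 103 CPM in the non-dysplastic WT lines 300 and 1269 and at 156 and 183 CPM in the dysplastic WT lines 565 and 752. In the KO lines it was at 228 CPM in 650, 126 CPM in 1270, 92.8 CPM in 794 and 245 CPM in 801. The lowest and the highest level of all 8 lines were thus both in dysplastic KO organoids, and both WT groups lay between them. Without the libraries that stood apart 650 was highest (278 CPM), 801 was at 255 CPM, and 1269 (103 CPM) was lowest, with 794 at 106 CPM. The KO difference was 0.34 ± 0.33 and the dysplastic difference 0.28 ± 0.33 on the log2 scale (SE), with adjusted p-values of 0.999988 and 0.998127 in edgeR's test.

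Sox12, the third group C factor, had low and higher lines in each group. Its levels were 1.81 and 5.29 CPM in lines 300 and 1269, 1.98 and 3.32 CPM in 565 and 752, 1.73 and 5.54 CPM in 650 and 1270, and 2.02 and 5.45 CPM in 794 and 801. The log2 differences (0.26 ± 0.57 for KO, -0.20 ± 0.57 for dysplasia, SE) were smaller than their errors.

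**Figure D3:**
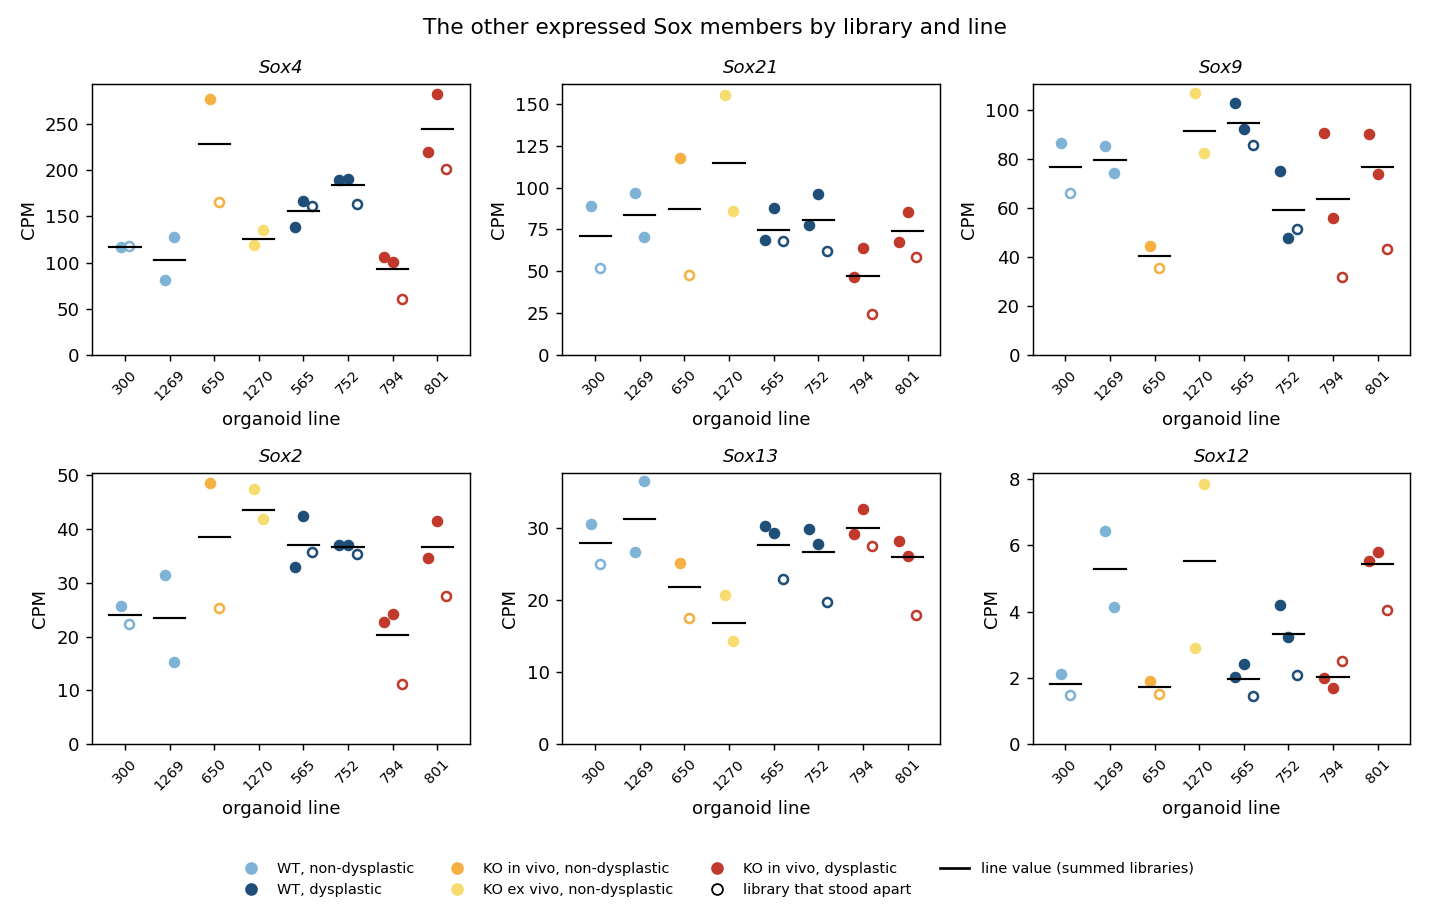
CPM (linear axes from 0) of Sox4, Sox21, Sox9, Sox2, Sox13 and Sox12 in each library (points, open for a library that stood apart) and each line (bars, summed libraries). Sox4 ran from 92.8 CPM in line 794 to 245 CPM in line 801, and Sox2 from 20.4 CPM in line 794 to 43.6 CPM in line 1270.

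Sox2, the foregut regulator of group B, was lowest in WT non-dysplastic organoids and in line 794. Lines 300 and 1269 were at 24.1 and 23.6 CPM and the non-dysplastic KO lines 650 and 1270 at 38.5 and 43.6 CPM. The dysplastic WT lines 565 and 752 were at 37.1 and 36.7 CPM and the dysplastic KO lines 794 and 801 at 20.4 and 36.6 CPM. Both non-dysplastic KO lines were above both WT lines, at 1.62 times (1.48 to 1.77) and 1.83 times (1.69 to 1.98) the summed WT level, with 95% intervals for counting error. Single libraries overlapped, with 48.6 and 25.4 CPM in the KO line 650 and 31.5 and 15.4 CPM in the WT line 1269. In dysplastic organoids both KO lines were below both WT lines, but 801 and 752, at 36.6 and 36.7 CPM, were almost level. Without the libraries that stood apart this separation was lost, with 801 at 38.8 CPM and 565 and 752 both at 37.5 CPM. There 650 was the highest of all lines, at 48.8 CPM, and 1269 the lowest, at 23.4 CPM.

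The KO difference in Sox2 thus had opposite signs in the classes, and the difference of the KO differences was -1.16 ± 0.38 (SE, log2 scale). Its unadjusted p was 0.0199 and its adjusted p 0.999829 in edgeR's quasi-likelihood test. Without line 794 it was -0.80, and without line 801 it was -1.65. The KO difference within the dysplastic lines, -0.37 ± 0.27, rested on line 794, since it was -0.01 without that line and -0.86 without 801. Library 794-3, which stood apart, had 11.3 CPM against 22.7 and 24.2 CPM in its sisters, and without it line 794 was at 24.0 CPM.

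Sox21, the group B repressor and closest relative of Sox2 by its box, was highest in line 1270 and lowest in line 794 on all libraries, as Sox2 was. It was at 71.1 and 83.6 CPM in lines 300 and 1269, 87.2 and 114 CPM in 650 and 1270, 74.9 and 80.6 CPM in 565 and 752, and 47.3 and 73.9 CPM in 794 and 801. The dysplastic KO lines lay below the dysplastic WT lines, by 0.36 ± 0.25 on the log2 scale (SE), with an unadjusted p of 0.192 in edgeR's test. Lines 801 and 565 were almost level, and the difference was -0.075 without line 794 and -0.72 without 801. The difference of the KO differences was -0.74 ± 0.35 with an unadjusted p of 0.0733 and the adjusted p at 0.999829 in edgeR's quasi-likelihood test. On the 14 remaining libraries it was -0.73, with an unadjusted p of 0.0222 and an adjusted p of 0.949 in the same edgeR test. There 650 was highest, at 118 CPM, and 300 was at 89.3, 1270 at 114, 565 at 77.9, 752 at 87.7, 794 at 56.4 and 801 at 77.6 CPM.

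Sox13, a group D factor without a classical activation domain, was the steadiest member, between 16.8 and 31.2 CPM over the lines. The WT lines 300, 1269, 565 and 752 were at 28.0, 31.2, 27.7 and 26.6 CPM, and the dysplastic KO lines 794 and 801 at 30.1 and 26.0 CPM. The non-dysplastic KO lines 650 and 1270 were the lowest, at 21.8 and 16.8 CPM. The difference of the KO differences was 0.66 ± 0.26 (SE), with an unadjusted p of 0.0415 and the adjusted p at 0.999829 in edgeR's quasi-likelihood test, and without line 1270 it was 0.44. On the 14 remaining libraries it was 0.57, with an unadjusted p of 0.0973 in edgeR's test and line 650 at 25.2 CPM.

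Sox9, the progenitor factor of group E, had no difference by genotype or dysplasia larger than its error. It was at 76.9 and 79.6 CPM in lines 300 and 1269, 94.7 and 59.1 CPM in 565 and 752, 40.4 and 91.5 CPM in 650 and 1270, and 63.7 and 76.7 CPM in 794 and 801. The lowest line was the non-dysplastic KO line 650 and the highest the dysplastic WT line 565, also without the libraries that stood apart (44.5 and 98.6 CPM). The log2 differences were -0.19 ± 0.28 for KO and 0.03 ± 0.28 for dysplasia (SE).

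**Figure D4:**
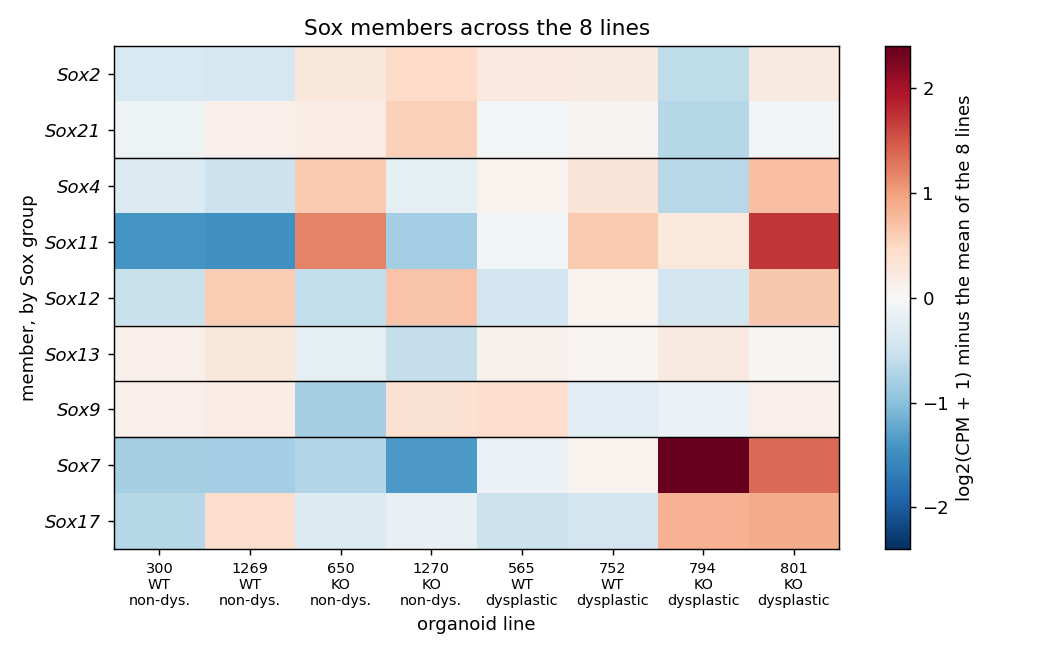
Difference of log2(CPM + 1) from the mean of the 8 lines for the 9 members that passed the filter on low counts, ordered by Sox group (rows) and line (columns), red for above and blue for below the mean. Sox7 is highest in lines 794 and 801, Sox11 is lowest in lines 300 and 1269, and Sox2, Sox21 and Sox4 are low in line 794.

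Of the 10 members, 9 passed the filter on low counts, and 7 of these had a test, since Sox7 and Sox11 were picked. No member passed in any of the 4 comparisons in edgeR's quasi-likelihood test, and neither did any of the 13476 genes tested, a share of 0%. At an unadjusted p under 0.05 the 7 members numbered 0 for KO against WT (4.03% of all genes), 0 for dysplastic against non-dysplastic (5.91%), 1 for KO against WT in dysplastic lines (4.36%), which was Sox17, and 3 for the difference of the KO differences (1.79%), which were Sox2, Sox13 and Sox17. DESeq2 on the line sums called 74, 153, 69 and 0 genes in these comparisons, and limma-voom with the line as a correlated block 63, 138, 101 and 0. Of the 7 members, Sox17 in dysplastic lines in limma-voom was the single call.

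Between the 4 KO and the 4 WT lines no member of 9 was separated in either direction, against 0.92% of genes separated upward and 1.46% downward. Between the dysplastic and the non-dysplastic lines Sox7 was separated upward, which its choice fixed (1.74% of genes), and no member downward (1.31%). With 2 lines against 2 among dysplastic organoids, Sox7 and Sox17 were separated upward (19% of genes) and Sox2 and Sox21 downward (18%). These 2 of 9 in each direction are near the shares of all genes, and 1 of the 2 upward was picked.

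The members did not share a direction in the 6 libraries that stood apart. Sox2, Sox7, Sox9, Sox13 and Sox21 were lower there than the mean of the sister libraries in 6 of 6 lines, as were 27.2% of all genes tested. The median difference in log2(CPM + 1) was -0.63 for Sox21 and -0.55 for Sox7. Sox12 was lower in 5 of 6 lines and Sox4 in 4 of 6. Sox11 and Sox17 were higher there than the mean of the sister libraries in 5 of 6 lines, by a median of 0.37 and 0.33. Of all genes tested, 78.2% and 75.5% had a median at or below these values. The share of genes higher in 5 of 6 lines was not measured, and 23.5% were higher in 6 of 6. Since the dysplastic lines have 1 such library in 3 and the non-dysplastic lines 1 in 2 or none, the line sums of a member depend on them to a different extent.

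**Figure D5:**
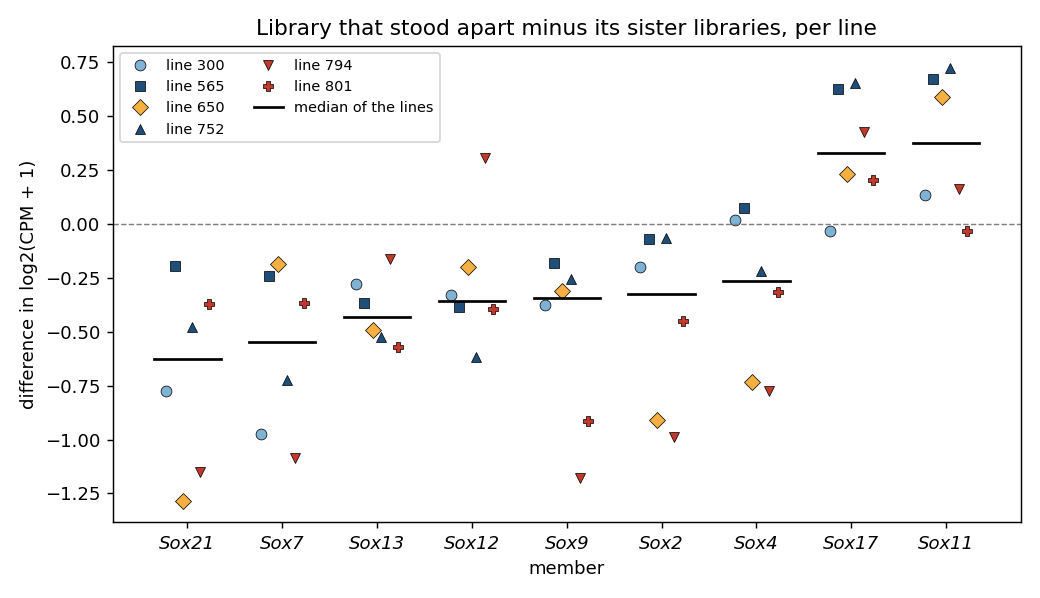
Difference in log2(CPM + 1) between the library that stood apart and the mean of its sister libraries, for each of the 9 members that passed the filter (columns) and each of the 6 lines (points), with the median of the lines as a bar. Sox21, Sox7, Sox13, Sox9 and Sox2 are below 0 in 6 of 6 lines, and Sox17 and Sox11 are above 0 in 5 of 6.

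The genes whose levels over the 8 lines were most like those of Sox7, by Pearson's r of log2(CPM + 1) among 10454 genes with a mean of at least 5 CPM, were Furin (r = 0.99), a protease of the secretory pathway, H2-Q4 (0.98), a class I histocompatibility gene with near-identical copies, and Rnf24 (0.98), a RING finger gene. Furin ran from 114 CPM in line 1270 to 195 CPM in line 794 and 168 CPM in line 801. For Sox11 the 3 genes were Kif3c (0.98), a kinesin, Nuak1 (0.97), a kinase, and Fscn1 (0.96), the actin-bundling protein fascin, which was at 3.10 CPM in line 300, 21.9 CPM in 650 and 60.7 CPM in 801.

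For Sox4, the member with the highest mean, the genes were Acta2 (0.98), smooth muscle actin, Rnf122 (0.98) and Tagln (0.97), an actin-binding protein of smooth muscle. Acta2 was at 0.95 CPM in line 794 and 104 CPM in line 801, the lines with the lowest and the highest Sox4 level. The named genes were not alone, since r was above 0.9 for 91 genes with Sox7, 37 with Sox11 and 24 with Sox4, over 8 points each. The points share depth and the 6 libraries that stood apart. On the 14 remaining libraries 1 of the 3 genes recurred for each member, Rnf24 for Sox7, Nuak1 for Sox11 and Rnf122 for Sox4.

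Genes of pathways in which Sox factors act were taken from lists and set beside the members, and no gene of any list was called in any comparison in edgeR's test. Of 13 tested genes of the beta-catenin and TCF list, with which group F factors interact, 11 had a positive log2 difference between dysplastic and non-dysplastic lines, with a median of 0.29, against 46.2% positive and a median of -0.02 over all genes. The most abundant were Ctnnb1, beta-catenin itself, at 1268 to 2076 CPM over lines, and Lgr4, a receptor for R-spondins, at 166 to 279 CPM. For KO against WT 5 of the 13 were positive, with a median of -0.02, against 48.5% positive over all genes.

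Of 17 tested foregut and gastric regulators, 9 were positive for KO against WT (median 0.05) and 6 for dysplasia (median -0.11). Foxq1, a factor of gastric pit mucous cells, led this list at 266 to 413 CPM, followed by Hnf4a at 209 to 288 CPM. Both were lowest in line 794, as Sox2 and Sox21 were on all libraries. Of the 18 listed regulators with a count, 5 were highest in line 794, among them Klf4 (242 CPM) and Spdef (161 CPM). The list sum of line 794, 1962 CPM, lay within the 1636 to 2122 CPM of the other lines. Of the 14 gastric epithelium markers detected, 5 were highest in line 794, among them Gkn1 (3760 CPM) and Muc5ac (461 CPM). Of 17 HMG box genes outside the Sox family, 10 were positive for KO (median 0.01) and 7 for dysplasia (median -0.03), led by Ssrp1, a histone chaperone subunit, at 234 to 408 CPM and Hmgb1, an abundant chromatin protein, at 142 to 202 CPM. The Sox list itself had 11 tested genes, 8 positive for KO and 7 for dysplasia, counts that hold Sox7 and Sox11, whose choice fixed their sign.

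Squamous forestomach markers, which Sox2-bearing foregut tissue can also hold, were positive for dysplasia in 5 of 6 tested genes (median 0.53). Over all genes 46.2% were positive for dysplasia. Krt4 led the list, at 6.86 CPM in line 794 and between 32.2 and 129 CPM in the other lines. Ivl, the second, was at 36.8 CPM in line 794 and lowest in line 1270, at 3.85 CPM. Of the 7 listed markers 1, Krt13, was highest in line 794 (8.27 CPM). The list summed to 53.1 CPM in line 794, 38.7 CPM in line 1270 and 73.1 to 182 CPM in the other lines. Intestine markers, the fate opposed to Sox2 in the gut, were positive for dysplasia in 4 of 6 (median 0.66). Among them Cdx2 was at 25.7 CPM in line 794, which had the lowest Sox2 level on all libraries, and at 0.97 CPM in line 1270, which had the highest. In the other 6 lines Cdx2 was between 2.00 CPM (565) and 9.95 CPM (752), and these 2 lines had Sox2 at 37.1 and 36.7 CPM. Without the libraries that stood apart, Sox2 was lowest in line 1269 (23.4 CPM) and highest in line 650 (48.8 CPM). Cdx2 was at 8.66 CPM in line 1269 and 5.94 CPM in line 650 on all libraries. Vil1 was at 136 CPM in line 1270, 259 CPM in line 794 and 282 to 371 CPM in the other 6 lines. Of the 7 intestine markers 4 were highest in line 794. The list summed to 139.7 CPM in line 1270, 295.6 CPM in line 794 and 295.9 to 377.4 CPM in the other 6 lines. The glia and immune lists summed to at most 2.58 and 2.06 CPM in any line.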

How the data were processed

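RNA was sequenced from 20 libraries of 8 mouse gastric organoid lines. Per the labels' protocols, libraries were made from total RNA with an mRNA kit, and reads were handled with bcl2fastq and STAR 2.5 on build mm9, per the submitters' processing notes. The annotation, the counter and the strand setting were not given in the sources used here. The deposited values are raw, whole-number counts for each gene symbol, not normalized by the authors. Members were matched by symbol, 10 of 10, and their sequences and transcript lengths came from GENCODE on build GRCm38.

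Libraries of 1 line were summed, since they share every label. In R 4.3.3, edgeR 4.0.16 kept 13476 of 24047 genes (filterByExpr), scaled by TMM and fitted 4 means (genotype by dysplasia) with robust quasi-likelihood tests, leaving 4 residual degrees of freedom. P-values were adjusted by Benjamini-Hochberg over all genes at a threshold of 0.05 and reflect no more than the spread among these 8 lines, part of which may be technical. An SE is the log2 fold change divided by the square root of F. CPM values are relative to the TMM-scaled total of the genes kept. Comparisons were KO against WT, dysplastic against non-dysplastic, KO against WT in dysplastic lines, and the difference of the KO differences.

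Alternatives were DESeq2 1.42.0, RLE scaling, no filter on low counts beyond 1 count, limma 3.58.1 (voom) on libraries with the line as a correlated block (correlation 0.22) with and without a replicate block, line sums of 14 libraries, a covariate for the sex of the line (read from its Xist and Ddx3y counts), and each line left out. A library stood apart where it exceeded 15 on the first component of deviations from its line's mean, which held 66.9% of the variance; the 6 had at least 18.6 and the other 14 at most 1.08. Sister libraries always differed by more than sampling noise (chi-square of 5.84 or more per degree of freedom in 16 pairs). The tests were tried on simulated data.

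In the smallest library, of 5669521 counts, a level of 1 CPM rests on few counts, so low members are read from line sums. The members, the 12 gene lists and the tests were chosen with earlier results of these data known. Named were the members, other Sox genes at 1 CPM or more in a line, and the 3 genes most like Sox7, Sox11 and Sox4. Named as well were Trp53 and up to 2 of the most abundant genes of a list, a rule that covers Cdx2. Pecam1, Tek, Erg, Emcn, Cldn5, Kdr, Egfl7, Stmn2, Dcx, Elavl3, Elavl4 and Atp4b, like Flt1 and Cdh5, were named after their values were seen. So were Krt13, Klf4, Spdef, Gkn1 and Muc5ac.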

Additional observations from a re-analysis of the deposited data

Results flagged for a closer look

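In 3 of 63 sets of 4 to 6 lines or libraries, 1 line lay far from the rest of its set by Dixon's criterion, which chance alone meets in about 1 set in 20. Sox2 was lowest among the 4 dysplastic lines in line 794, at 20.4 CPM, with the other 3 between 36.6 and 37.1 CPM. Without library 794-3 that line was at 24.0 CPM. Sox11 was highest among the 4 non-dysplastic lines in line 650, at 6.03 CPM, with 0.745 CPM in line 1270 and at most 0.14 CPM in the WT lines. Since Sox11 was picked for its rise in dysplastic or KO lines, and 650 is a KO line, its flag is a description and no test. The rate of 1 set in 20 does not apply to it. Both libraries of line 650 had it, with 63 and 76 counts. Sox17 was highest among the 4 WT lines in line 1269, at 5.09 CPM, with 59 and 69 counts in its libraries and 1.81 to 2.36 CPM in the other WT lines.

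For 2 members every KO line was above the WT lines in non-dysplastic organoids and below them in dysplastic ones. The share of all genes with such a pattern was not measured, and in dysplastic organoids alone 18% of genes were separated downward. For Sox2 the pattern was lost without the libraries that stood apart, with line 801 at 38.8 CPM and 565 and 752 both at 37.5 CPM. The difference of the KO differences on the log2 scale was -1.16 for Sox2 and -0.74 for Sox21. Neither passed in edgeR's quasi-likelihood test, where both adjusted p-values were 0.999829.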

How the results depend on the processing

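The number of genes called depended on the test. For KO against WT, dysplastic against non-dysplastic, and KO against WT in dysplastic lines, edgeR on line sums called 0 genes each, DESeq2 74, 153 and 69, and limma-voom with the line as a correlated block 63, 138 and 101, with 1 Sox member called, Sox17, in dysplastic lines. With the replicate block in limma-voom the counts were 45, 101 and 39. The library numbers pair nothing that the labels name, and of 62 same-numbered pairs of libraries from different lines 30 had deviations correlated above 0.1 (range -0.91 to 0.88). Sex as a covariate gave 1 gene for dysplasia. With 1 line left out at a time the counts ran from 0 to 1 for KO and from 0 to 3 in dysplastic lines, the upper ends without line 801. The cause was not tested.

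Signs turned for the following differences. For KO, Sox21 was -0.086 in limma-voom and -0.095 with the replicate block. For dysplasia, Sox9 was -0.049 in limma-voom and -0.24 with sex as a covariate. In dysplastic lines on the 14 remaining libraries the KO difference was 0.069 for Sox4 and 0.0027 for Sox9. With 1 line left out at a time, the KO difference ran from -0.040 to 0.39 for Sox2, -0.10 to 0.60 for Sox4, -0.54 to 0.046 for Sox9, -0.27 to 0.76 for Sox12 and -0.17 to 0.15 for Sox21. The dysplastic difference ran from -0.19 to 0.23 for Sox2, -0.16 to 0.55 for Sox4, -0.21 to 0.38 for Sox9 and -0.64 to 0.33 for Sox12. The KO difference in dysplastic lines ran from -0.88 to 0.53 for Sox4, -0.44 to 0.23 for Sox9, -0.40 to 1.04 for Sox12 and -0.065 to 0.14 for Sox13. The difference of the KO differences ran from -0.36 to 0.78 for Sox9 and -0.58 to 1.49 for Sox12. The other signs of tested members held under all alternatives run. Where a group is left with 1 line, that line is assumed to vary like the others.

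Depth limits Sox11 in WT non-dysplastic lines (3 counts each) and Sox18 (1 count).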
